A study of Mus musculus with 10 samples.

Results

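The genes described here are 10 genes through which cells read retinoic acid. They are the 3 retinoic acid receptors Rara, Rarb and Rarg, the 3 retinoid X receptors Rxra, Rxrb and Rxrg, the carrier proteins Crabp1, Crabp2 and Fabp5, and the ligand-dependent corepressor Nrip1. They were picked by gene symbol from 52636 Ensembl gene identifiers, by a rule that names no measured value but was written with earlier results of these data known, and each symbol matched 1 identifier. All 10 had enough reads to be tested, and 16005 identifiers were tested in all.

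The libraries came from E14, a mouse embryonic stem cell line, either unedited (WT) or lacking an element bound by the chromatin protein CTCF (CBE-KO), studied for contacts between the enhancers beside it and the HoxA genes. Both groups were withdrawn from LIF and the inhibitors PD0325901 and CHIR99021, which hold these cells in self-renewal, and were given retinoic acid at a labelled dose of 2 µM for 24 h before RNA-seq, with 2 libraries each. No library without retinoic acid was analysed here, so the values compare the genotypes under treatment and do not measure induction. How many edited clones the CBE-KO libraries represent is not given in the sources used here.

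Retinoic acid, made from vitamin A, enters the nucleus and binds a retinoic acid receptor (RAR), which sits on DNA as a pair with a retinoid X receptor (RXR). The pair recognises direct repeats of a short hexamer called retinoic acid response elements. Without ligand it holds corepressors, and with ligand it exchanges them for coactivators. CRABP2 delivers retinoic acid to RARs, CRABP1 is linked to its retention and turnover in the cytoplasm, and FABP5 can pass it to another receptor, PPAR delta. In embryonic stem cells this pathway switches on Hox genes and drives exit from pluripotency.

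Among these genes Rarb is the textbook case of a receptor gene that is itself a target of RARs, so promoter sequences were searched first. RefSeq start sites on GRCm38.p6 gave 16 promoter windows, some overlapping, for 8 of the 10 genes, each with 250 bases before and 50 after the start. Crabp2 and Fabp5 had no window. The search took 2 hexamers on the same strand, each being the hexamer AGGTCA or its variant AGTTCA or variant GGGTCA or variant GGTTCA, with 1, 2 or 5 bases between them, on both strands. Of the 16 windows, 1 held such a repeat, that of Rarb, with 5 bases between the hexamers. A repeat with that spacing was found in 32 of all 32851 promoter windows (0.0974%), and any of the 3 spacings in 193 (0.588%). The only Rarb window lies inside the gene, which spans chr14:16430839-17082331, and reads were counted per gene, not per start. The 250 bases before this start are shown because they carry the repeat. They lie on the minus strand at chr14:16575477-16575726 and are written 5′ to 3′, with both hexamers in capitals.
Rarb: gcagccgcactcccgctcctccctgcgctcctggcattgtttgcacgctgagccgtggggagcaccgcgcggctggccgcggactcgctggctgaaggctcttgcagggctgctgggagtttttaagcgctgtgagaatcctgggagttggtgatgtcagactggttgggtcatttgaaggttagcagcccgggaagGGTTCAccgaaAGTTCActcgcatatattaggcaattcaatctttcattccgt

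Of 67 other genes of the pathway, 51 had a promoter window, and the same search found a repeat in 1 of them, Cyp26a1, which encodes an enzyme that breaks down retinoic acid. Its repeat also has 5 bases between the hexamers. A looser search, chosen after this result was seen, allowed 8 hexamers, the 4 above with the further variant AGGTGA, variant AGTTGA, variant GGGTGA and variant GGTTGA, and was met by 457 of all windows (1.39%). It added a repeat with 1 base between the hexamers in the second Rxrg window and, among the other pathway genes, repeats in the windows of Stra8, Thrb and Pdk4. The repeats of the 4 genes below are shown for comparison with 20 bases on each side, in the direction of the repeat, hexamers in capitals. The Cyp26a1 repeat runs against the direction of the gene and the others run with it. The repeats themselves lie at chr14:16575513-16575529 (Rarb), chr19:37697776-37697792 (Cyp26a1), chr1:167618170-167618182 (Rxrg) and chr6:34920746-34920759 (Stra8).
Rarb: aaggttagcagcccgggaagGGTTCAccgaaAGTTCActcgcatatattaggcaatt
Cyp26a1: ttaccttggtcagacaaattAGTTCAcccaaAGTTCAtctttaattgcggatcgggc
Rxrg: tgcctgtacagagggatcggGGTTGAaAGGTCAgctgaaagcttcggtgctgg
Stra8: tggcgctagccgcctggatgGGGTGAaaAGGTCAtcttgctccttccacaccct
A match describes the letters only. No binding was measured in the RNA-seq libraries.

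The 4 libraries held 14108038 to 15632960 counts. CPM is the number of reads of a gene after scaling to a common library size. By library totals, 3 counts, a floor set by choice, stood for 0.192 to 0.213 CPM. Levels below are CPM scaled with TMM, edgeR's trimmed mean of log ratios, and fold changes are from edgeR's quasi-likelihood test, which adjusts p by Benjamini-Hochberg over all tested genes. The groups differed widely. In this fit 6895 of 16005 genes (43.1%) passed an adjusted p of 0.05, 21.6% as higher and 21.5% as lower in CBE-KO. Scaling by library totals alone moved the higher share of these calls from 50.2% to 67.0%, and DESeq2 called 4577 genes (28.6%). The groups also differed in 4 Y-linked genes, Ddx3y, Eif2s3y, Uty and Kdm5d, which summed to 12 and 10 counts in WT and to 2105 and 1875 in CBE-KO. Loss of the element and any other difference between the 2 cell populations cannot be told apart in this design.

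Of the 10 genes, 9 passed the test, against 43.1% of all tested genes. Rara, Rarb, Crabp1, Crabp2, Fabp5 and Nrip1 were higher in CBE-KO, and Rarg, Rxra and Rxrg were lower. Rxrb did not pass. The 2 groups did not overlap for those 9 genes, a property that 70.4% of all tested genes shared. The median absolute log2 fold change was 0.75 over the 10 genes and 0.28 over all tested genes, so the changes were moderate in size, and 2 of the 10, Crabp2 and Rxrg, reached a log2 change of 1 or more in size (8.64% of all tested genes).

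**Figure D1:**
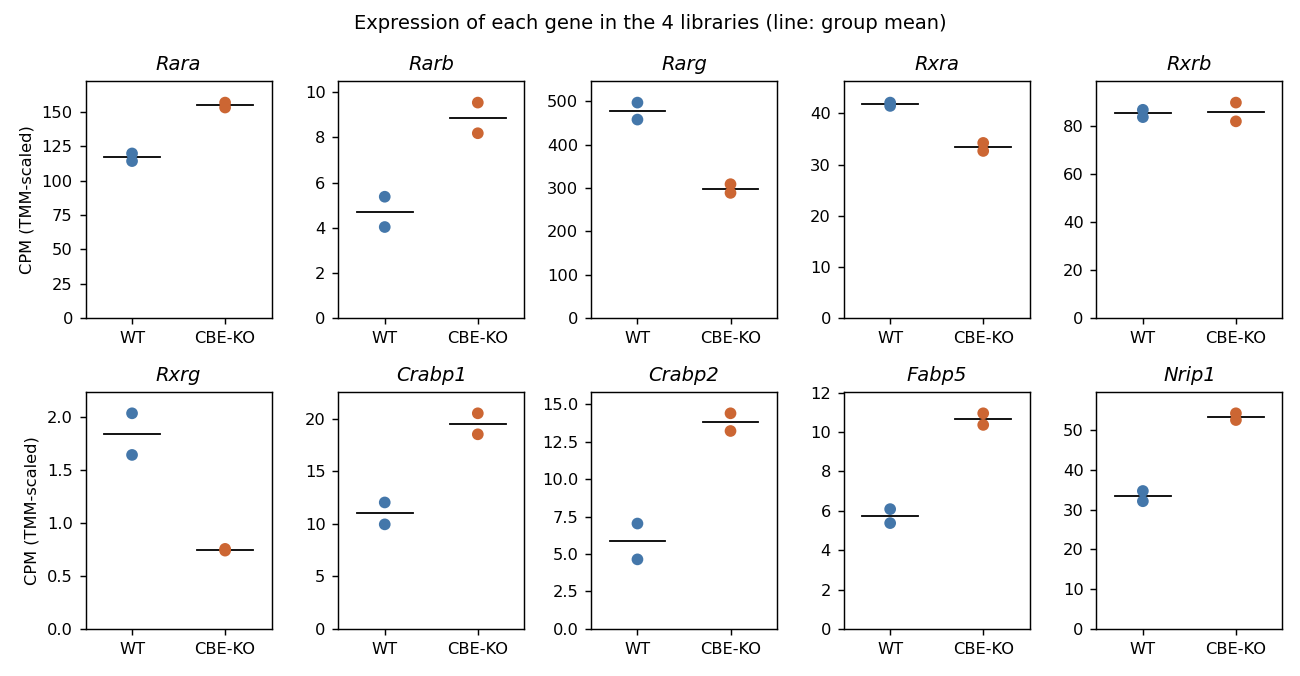
TMM-scaled CPM (vertical axes, each from 0) of the 10 genes in the 2 WT and 2 CBE-KO libraries; points are libraries and lines are group means. The groups are apart for every gene except Rxrb, and Rarg, Rxra and Rxrg are the 3 genes that are lower in CBE-KO.

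The RARs did not move together. Rara, the most broadly expressed isotype in mouse tissues, had 120 and 114 CPM in the WT libraries and 153 and 157 CPM in the CBE-KO libraries. Both CBE-KO libraries lay above both WT libraries. This 1.32-fold rise corresponds to 0.41 ± 0.05 on the log2 scale (SE; edgeR adjusted p = 5.17e-06).

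Rarb, the isotype whose promoter window carries the repeat printed above, was low in WT, with 59 and 74 counts (4.03 and 5.37 CPM). The CBE-KO libraries had 133 and 139 counts (8.18 and 9.53 CPM). Its level was thus 1.88-fold higher without overlap, or 0.91 ± 0.19 on the log2 scale (SE; edgeR adjusted p = 0.00100).

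Rarg, the isotype linked to retinoic acid responses of embryonic stem cells, went the other way. Its WT libraries reached 458 and 497 CPM and its CBE-KO libraries 289 and 309 CPM. The drop was 1.60-fold, or -0.68 ± 0.05 on the log2 scale (SE; edgeR adjusted p = 1.77e-08), the smallest adjusted p among the 10 genes.

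The opposite changes altered the make-up of RAR reads. The share of each gene in the summed reads of a family does not depend on how libraries are scaled. It does depend on gene length, which was not used here, so shares are compared between groups and not between genes. Rarg held 78.7% and 80.6% of RAR reads in WT against 64.2% and 65.0% in CBE-KO, and the mean fell by 15.1 percentage points. Rara held 20.6% and 18.5% in WT against 34.0% and 33.0% in CBE-KO, and the mean rose by 13.9 points. Rarb went from 0.693% and 0.872% to 1.82% and 2.01%. For each of the 3 genes both CBE-KO libraries lay on the same side of both WT libraries. With 2 libraries against 2, an exact two-sided permutation test cannot go below p = 0.333, which is the value each share gave. Summed over the 3 genes, RAR reads amounted to 599 ± 24.7 CPM in the WT libraries and 462 ± 17.7 CPM in the CBE-KO libraries (SD, n = 2 each; exact permutation p = 0.333), a 1.29-fold lower level.

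**Figure D2:**
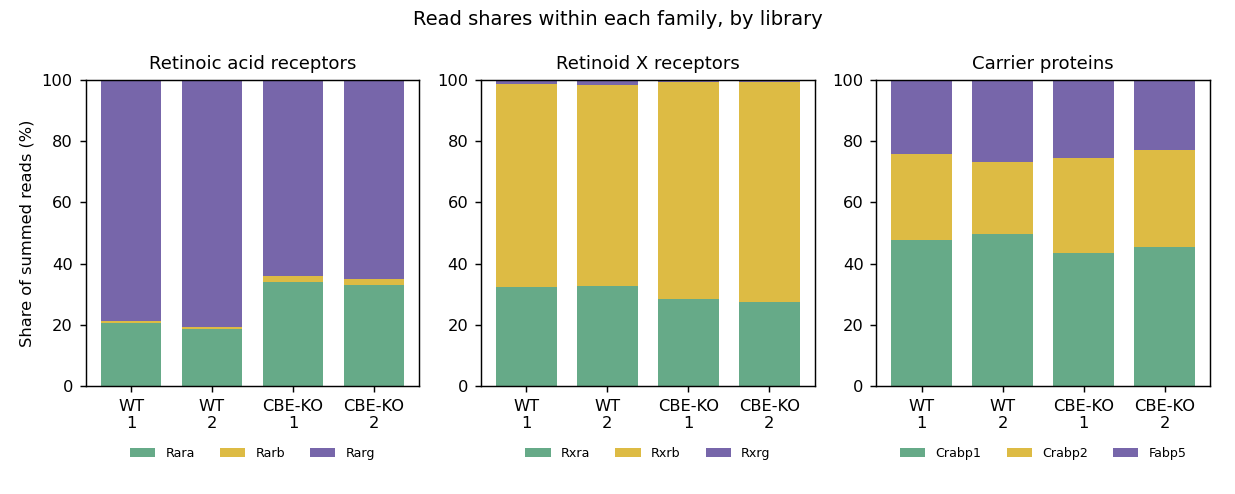
Share of the summed reads of each family (vertical axis, %) held by each gene in each of the 4 libraries, for the RARs, RXRs and carriers. Rarg held 78.7% and 80.6% of RAR reads in WT and 64.2% and 65.0% in CBE-KO, and the groups overlap for Fabp5.

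The RXRs, which pair with RARs and with several other nuclear receptors, were lower or level. The WT libraries read Rxra at 42.1 and 41.4 CPM and the CBE-KO libraries at 32.7 and 34.2 CPM. The groups did not overlap, and the 1.25-fold fall equals -0.32 ± 0.08 on the log2 scale (SE; edgeR adjusted p = 0.00241).

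For Rxrb the WT libraries gave 86.5 and 83.5 CPM, and the CBE-KO libraries 81.7 and 89.5 CPM. The latter lay on either side of the WT libraries. The difference of 0.01 ± 0.06 on the log2 scale (SE; edgeR adjusted p = 0.918) was smaller than the spread between replicates, and its sign depended on scaling.

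Rxrg, an isotype with a restricted tissue range, was near the limit of measurement. The WT libraries held 24 and 28 of its reads, and the CBE-KO libraries 12 and 11. These correspond to 1.64 and 2.03 CPM against 0.738 and 0.754 CPM. The fall was 2.44-fold, or -1.29 ± 0.39 on the log2 scale (SE; edgeR adjusted p = 0.0134). It did not pass in DESeq2 (adjusted p = 0.109), nor in edgeR without WT replicate 2 (adjusted p = 0.0678), without CBE-KO replicate 1 (0.0740) or without CBE-KO replicate 2 (0.0603), with log2 fold changes from -1.31 to -1.13 in these 4 fits.

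Summed RXR reads amounted to 129 ± 2.33 CPM for WT against 120 ± 6.62 CPM for CBE-KO (SD, n = 2 each; exact permutation p = 0.333, the smallest possible). Within them, Rxrb held 66.4% and 65.8% in WT and 71.0% and 71.9% in CBE-KO. Rxra held 32.3% and 32.6% against 28.4% and 27.5%.

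All 3 carriers rose. Crabp1, which binds retinoic acid in the cytoplasm, stood at 12.0 and 9.94 CPM in WT against 18.5 and 20.5 CPM in CBE-KO. It rose 1.77-fold without overlap, by 0.82 ± 0.13 on the log2 scale (SE; edgeR adjusted p = 7.09e-05).

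Crabp2, which carries retinoic acid to RARs, was counted 103 and 64 times in WT against 215 and 210 times in CBE-KO (7.04 and 4.65 against 13.2 and 14.4 CPM). The WT libraries differed from each other more than the CBE-KO libraries did, and both stayed below them. It rose 2.35-fold, by 1.23 ± 0.18 on the log2 scale (SE; edgeR adjusted p = 2.64e-05), the largest rise among the 10 genes, and leaving out WT replicate 1 or WT replicate 2 gave 1.57 and 0.97.

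Fabp5, a fatty acid carrier that also binds retinoic acid, stood at 6.08 and 5.37 CPM in WT against 10.9 and 10.4 CPM in CBE-KO. It was 1.86-fold higher without overlap, or 0.89 ± 0.17 on the log2 scale (SE; edgeR adjusted p = 0.000299). How reads that match several places were counted is not given in the sources used here, so any copies of Fabp5 elsewhere in the genome leave its level uncertain.

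Together the carriers went from 22.6 ± 3.67 to 44.0 ± 1.83 CPM (SD, n = 2 each; exact permutation p = 0.333), 1.95-fold. Their relative shares moved little beside this rise. Crabp1 held 47.8% and 49.8% of carrier reads in WT and 43.4% and 45.3% in CBE-KO. Crabp2 held 28.0% and 23.3% against 31.0% and 31.8%, a difference of 5.77 points that became 3.41 without WT replicate 2. The Fabp5 shares of the groups overlapped (exact permutation p = 0.667).

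Nrip1 (also known as RIP140) binds ligand-occupied nuclear receptors and recruits repressors, and it is itself a retinoic acid-responsive gene. Its WT libraries stood at 32.1 and 34.7 CPM and its CBE-KO libraries at 54.2 and 52.5 CPM. The rise was 1.60-fold without overlap, or 0.68 ± 0.08 on the log2 scale (SE; edgeR adjusted p = 1.32e-06).

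**Figure D3:**
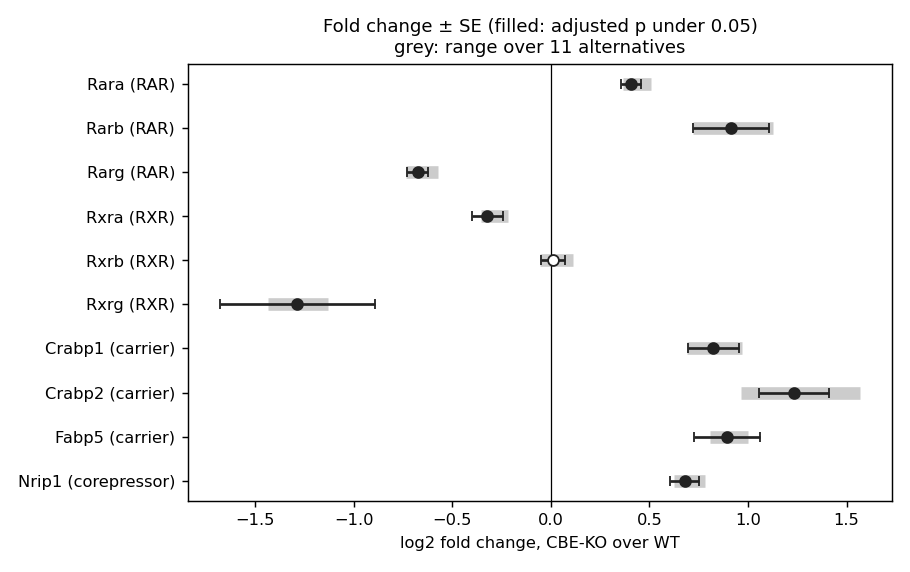
Log2 fold change of CBE-KO over WT (horizontal axis) with its SE for the 10 genes, and in grey the range over 11 alternative fits. Filled points passed an adjusted p of 0.05; 9 of 10 are filled, and the grey range crosses 0 for Rxrb.

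The corepressors and coactivators that RARs and RXRs recruit were compared next. Of 18 genes, all tested, 7 passed (38.9%, against 43.1% of all tested genes), 3 higher and 4 lower, with a median log2 fold change of 0.04 beside 0.01 over all genes. With library totals alone 13 passed, 10 of them higher. That scaling called 7122 of all 16005 tested genes, 4770 of them higher, and put the median over all genes at 0.11. Ncor1, a main corepressor of unliganded receptors, did not pass (log2 fold change of 0.05; edgeR adjusted p = 0.442).

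Of the genes that passed, Ctbp2, a corepressor and a known partner of NRIP1, fell from 106 and 107 CPM to 56.1 and 60.6 CPM (log2 fold change -0.87 ± 0.06, SE). Ncoa3, a p160 coactivator, fell from 372 and 387 to 239 and 222 CPM (-0.72 ± 0.05, SE). A second p160 coactivator, Ncoa2, rose from 26.5 and 28.1 to 40.7 and 36.9 CPM (0.51 ± 0.08, SE). The coactivator arginine methyltransferase Prmt1 fell from 621 and 592 to 454 and 448 CPM (-0.43 ± 0.05, SE). The p160 coactivators thus moved in both directions, and Ncoa1 did not pass (-0.24; edgeR adjusted p = 0.0591).

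RXRs also pair with other receptors. Of 11 such genes 9 were tested and 4 passed (44.4%), 2 higher and 2 lower, a share near the 43.1% of all tested genes. Nr4a2, an orphan receptor, rose from 1.37 and 2.90 CPM to 6.21 and 5.21 CPM (1.43 ± 0.28, SE), and leaving out WT replicate 1 or WT replicate 2 gave 0.98 and 2.06. Its relative Nr4a1 fell from 33.6 and 35.4 to 24.9 and 21.7 CPM (-0.56 ± 0.09, SE). Ppard, the receptor that FABP5 can supply, had a log2 fold change of -0.31 (edgeR adjusted p = 0.00477), which became -0.21 without CBE-KO replicate 1 (adjusted p = 0.118). Thra, a thyroid hormone receptor, had 0.37 (edgeR adjusted p = 0.0305). It did not pass in DESeq2 (adjusted p = 0.177), nor in edgeR without WT replicate 2 (0.142), CBE-KO replicate 1 (0.101) or CBE-KO replicate 2 (0.0821). Without CBE-KO replicate 1 fewer of this list passed, and fewer of all tested genes did too.

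Genes that supply or break down retinoids moved mostly upward. Of 12 genes, 10 were tested and 7 passed (70.0%, against 43.1% of all tested genes), 6 higher and 1 lower. The median log2 fold change was 0.85 beside 0.01 over all genes. Genes called higher but not named in this paragraph averaged under 5 CPM in both groups. In DESeq2, which called 28.6% of all tested genes, 4 passed. Fewer of the list also passed in edgeR without WT replicate 1, a fit in which fewer of all tested genes passed too. Cyp26a1 rose from 178 CPM in both WT libraries to 575 and 580 CPM in CBE-KO, 3.25-fold. Stra6, which encodes the cell-surface importer of vitamin A, rose from 20.8 and 25.0 CPM to 59.2 and 60.4 CPM (log2 fold change 1.39 ± 0.09, SE). Dhrs3, which turns retinal back to retinol, rose from 42.6 and 42.4 to 79.0 and 86.8 CPM (0.96 ± 0.07, SE). Cyp26b1, a relative of Cyp26a1, had a log2 fold change of -0.32 (edgeR adjusted p = 0.0438). It did not pass with upper-quartile scaling, library totals or DESeq2 (adjusted p = 0.0690, 0.169 and 0.173), nor in edgeR without WT replicate 1 (0.113), WT replicate 2 (0.0792) or CBE-KO replicate 1 (0.311).

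Genes taken from general knowledge as direct RAR targets, Rarb and Crabp2 left out, were higher where they passed. Of 10, 9 were tested and 7 passed (77.8%, against 21.6% of all tested genes called as higher), all 7 higher, with a median of 0.41 beside 0.01 over all genes. Hoxa4, a gene of the HoxA cluster, rose from 9.98 and 9.36 to 17.4 and 20.2 CPM (log2 fold change 0.95 ± 0.13, SE). Cyp26a1 and Dhrs3 are counted in this list too. Hoxb1 (0.20; edgeR adjusted p = 0.280) and Tgm2 (-0.14; adjusted p = 0.452) did not pass. Cyp26a1 and other genes of this list had been seen to differ in earlier results of these data, so the list is not independent evidence of a direction.

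The proteins CRABP1, CRABP2 and FABP5 belong to a wider family of intracellular lipid carriers, and most other genes of it were hardly read. Of 10, 7 were not tested, with at most 7 counts in any library, and Fabp1, Fabp2, Pmp2 and Rbp2 had 0 counts in all 4. Of the 3 tested, 2 passed and both were lower, where 21.5% of all tested genes were called as lower. One of them, Fabp3, a fatty acid carrier, had a log2 fold change of -0.31 (edgeR adjusted p = 0.00331), which became -0.22 without CBE-KO replicate 1 (adjusted p = 0.0774).

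PPAR delta targets were compared because FABP5 can route retinoic acid to that receptor. Of 8 genes, 7 were tested and 5 passed (71.4%, against 21.6% of all tested genes called as higher), all 5 higher, with a median of 0.21 beside 0.01 over all genes. Angptl4 (-0.20; edgeR adjusted p = 0.119) and Hadha (0.01; adjusted p = 0.859) did not pass. In DESeq2 2 of the 7 passed, both higher. Over all 16005 tested genes DESeq2 called 4577, of which 2047 were higher. Cpt1a, the entry enzyme of mitochondrial fatty acid oxidation, rose from 36.2 and 41.2 to 70.2 and 63.6 CPM (log2 fold change 0.79 ± 0.08, SE), and Acadvl, a later enzyme of that route, had 0.44 ± 0.11 (SE). Pdk4 had 0.50 (edgeR adjusted p = 0.0233) and the lipid droplet gene Plin2 0.21 (adjusted p = 0.0120). Neither passed in DESeq2 (adjusted p = 0.146 and 0.118) or without CBE-KO replicate 1 (0.137 and 0.101), and Pdk4 also failed without WT replicate 1 (0.121).

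**Figure D4:**
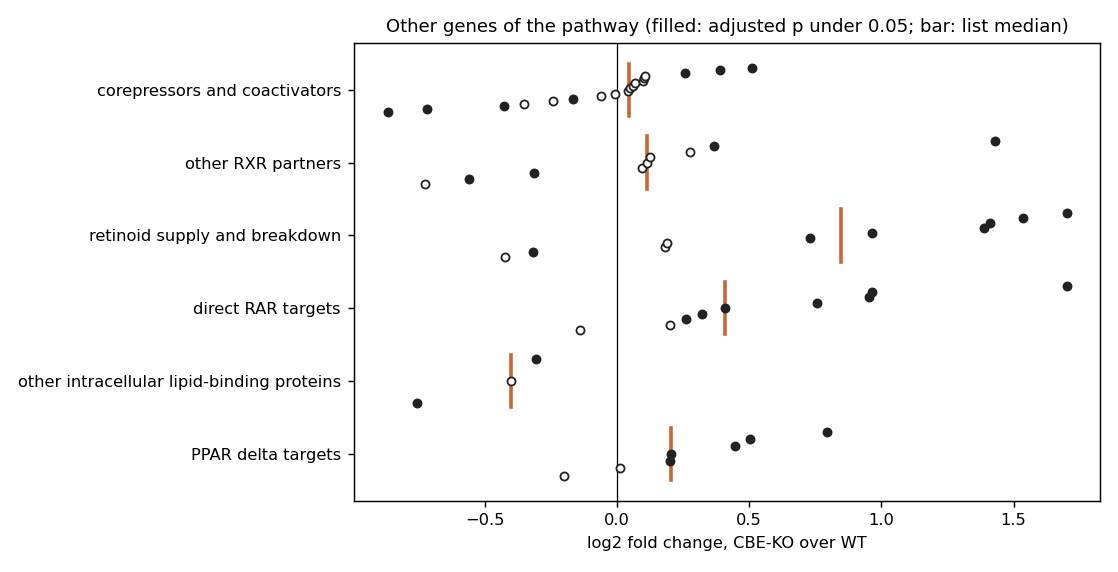
Log2 fold change of CBE-KO over WT (horizontal axis) for each tested gene of the 6 lists of other pathway genes; filled points passed an adjusted p of 0.05 and bars are list medians. The medians run from -0.40 for the other lipid-binding proteins to 0.85 for retinoid supply and breakdown.

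In bulk RNA, fewer cells of a type and less RNA per cell cannot be told apart. Marker levels moved beside the genes above. Their counts stand against the 43.1% of all tested genes that passed, 21.6% as higher and 21.5% as lower. The counts of 4 of 8 and 1 of 2 below lie close to 43.1% and are not read as a result about those markers. The 7 pluripotency markers, all detected, summed to 4229 and 4056 CPM in WT and to 3204 and 3244 in CBE-KO. Of the 7, 6 passed, 5 lower and Nanog higher. Among those lower, Utf1 alone fell from 782 and 728 CPM to 225 and 248 CPM. The 8 extraembryonic endoderm markers summed to 119 and 122 CPM against 146 and 150, with 4 of 8 higher and 4 that did not pass. The 5 neural markers summed to 100.4 and 90.8 CPM against 72.8 and 73.7, with 3 higher and Tubb3 lower. Most of these sums was Tubb3 alone, with 74.1 and 64.4 CPM in WT and 40.3 and 41.1 in CBE-KO. The 6 trophoblast markers summed to 18.0 to 18.9 CPM in all libraries and none of the 5 tested passed in edgeR (0 at an unadjusted p under 0.05) or in DESeq2. Of 7 fibroblast markers, Dcn, Lum and Postn had 0 counts in all 4 libraries, Col1a1 was the 1 of 2 tested that passed, as higher, and the sum was 11.3 and 12.9 CPM against 14.8 and 17.6. The part of these cell states in the changes of the 10 genes was not tested.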

How the data were processed

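The deposited values are raw read counts per Ensembl gene, 1 table per library, with library totals of 14108038 to 15632960. The authors' processing notes list HISAT2 2.1.0, HTSeq 0.9.1, DESeq2 1.18.1 and Bowtie2 2.3.1 and the build mm10, without roles. Strand use, treatment of multi-mapping reads and annotation release are not given in the sources used here. Capture-C files (6 samples) were not used here.

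Symbols came from a table that matched 52403 of 52636 identifiers. Genes were kept by filterByExpr, scaled by TMM and tested in edgeR 4.0.16 (R 4.3.3; glmQLFit, glmQLFTest, no covariate, two-sided, Benjamini-Hochberg over 16005 genes, threshold 0.05). CPM are counts divided by the library total times its TMM factor, in the usual unit. DESeq2 1.42.0 was an alternative, beside other scalings, filters, a replicate block, stricter calls and leaving out each library. Replicates differed by more than sampling noise (chi-square per degree of freedom 2.67 and 2.23). Nothing in the labels says how replicates were cultured, so p-values measure the spread between these libraries. On simulated counts with 200 genes changed by a log2 fold change of 1, edgeR recovered 173 and made 7 false calls among 15680 genes. That setting gave every gene the same dispersion and changed far fewer genes than the 6895 called in the data. Its figures therefore do not cover smaller changes or a fit with so many called genes.

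The 10 genes and the lists were chosen with earlier results of these data known. Named are all 10 genes and, per list, up to 4 genes with the largest changes that passed, averaged 5 CPM or more in the higher group and did not overlap, with a few others given as values chosen after they were seen. A few listed genes are left out of the text and not reported here. Promoters are from RefSeq on GRCm38.p6, the assembly of mm10.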

Additional observations from a re-analysis of the deposited data

How the results depend on the processing

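The number of the 10 genes that changed was 8 or 9 under the other scalings, filters and tests and without any 1 library, and 2 when a log2 change of 1 or more in size was asked for as well. That rule left 5 of 30 changed genes over the other pathway lists and 1383 of 6895 over all genes, and DESeq2 called 4577 over all genes. Rxrb, near 0, turned to -0.0019 with median-of-ratios scaling and -0.0015 in DESeq2, and leaving out 1 library gave -0.056 to 0.075 (adjusted p from 0.131 to 0.994 over all alternatives). The other 9 genes kept their direction in all 11 alternatives, and 8 of them, all but Rxrg, kept their call too. Library totals alone put the median over all genes at 0.11 on the log2 scale. With the replicate block 9 of the 10 genes and 7027 of all genes passed. Same-numbered libraries share only a number (correlation of their deviations 0.035). The difference in Fabp5 share of carrier reads, -1.28 points, ranged from -2.67 to 0.10 when 1 library was left out. The other read shares kept their sign. Fits without 1 library assume that the lone library of its group varies like the other group. Depth limits Rxrg, with 11 to 28 counts per library.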

Other observations

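The genes next to the 10 genes on the chromosome were compared with them. On GRCm38.p6 the nearest tested gene on each side was taken, a choice made after the values were seen. Of these 20 neighbours 7 passed in edgeR (35.0%, against 43.1% of all tested genes), and 4 of the 18 neighbours of a changed gene passed in the same direction as it. Over all tested genes 21.6% were called as higher and 21.5% as lower. Top2b, a DNA topoisomerase gene, lies 0.052 kb from the downstream end of Rarb, a gene on the minus strand. Top2b was higher by a log2 fold change of 0.41 (edgeR adjusted p = 3.66e-05). Cdc6, a replication licensing gene 3.86 kb from Rara, was lower by -0.66 (adjusted p = 1.58e-08) while Rara rose, and the neighbour of Rara on its other side, Top2a, a DNA topoisomerase gene, was higher by 0.12 (adjusted p = 0.0311). Rxrg fell while its neighbours Lmx1a (1.40; adjusted p = 0.0427) and Mgst3 (0.40; adjusted p = 0.0143) were higher. The neighbours of Rarg, Itgb7 and Gm9918, did not pass (0.13 and -0.12; adjusted p = 0.286 and 0.641). The neighbours of Crabp1 and Crabp2 did not pass either. Gm9833, beside Fabp5, was higher as Fabp5 was (0.41; edgeR adjusted p = 0.00626). Gm13421, beside Rxra, was lower as Rxra was (-0.65; adjusted p = 0.0468).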
